A study of Mus musculus with 4 samples.

Results

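Expression of 10 genes was examined in T8, a precursor B-cell acute lymphoblastic leukemia line, after IRF4 was put back by retrovirus. The genes were *Kcnf1*, *Tubb3*, *Car2*, *Cd248*, *Radil*, *Lta*, *Cyp4f18*, *Clec2i*, *Sema5b* and *Adgrg1*. They had been picked as the strongest negative loadings on principal component 1 of the same libraries, the axis that separates cells with and without IRF4, out of 55359 genes in the count table. The line was derived from a tumor that arose in an *Irf4*-/- mouse, so every library carries that genotype. The control cells (EV-RV) received a retrovirus coding for GFP alone and the treated cells (IRF4-RV) a retrovirus coding for GFP plus IRF4. RNA was taken 24 h after transduction, from cells that were still viable, with 2 libraries per group. T8 is a single line, each group is the same line transduced in duplicate, and the labels do not say whether the duplicates were separate cultures, so p-values measure only the spread between these libraries. The protocol text of the labels names T11 cells, while titles and tissue name T8, and the libraries were taken as T8.

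Depth was 31686715 and 31230223 counts in the EV-RV duplicates and 34771970 and 37817752 counts in the IRF4-RV duplicates. A floor of 3 counts corresponds to between 0.0824 and 0.0952 CPM (counts scaled by TMM-adjusted library size), for counting error only. *Irf4* itself was counted 8070 and 7600 times under EV-RV, against 95578 and 90693 times under IRF4-RV, a log2 fold change of 3.46 (SE 0.0907). Reads from the vector and from the disrupted locus are not separated in these counts. The B-lineage markers *Cd79a*, *Cd79b*, *Pax5* and *Ebf1* were each counted at least 3316 times in every library and did not pass the test, while *Rag1* and *Rag2* stood at 0 or 1 count. Of 12 B progenitor markers 10 were tested, and 4 were lower, namely *Dntt* (log2 fold change -1.55), the surrogate light chain genes *Vpreb1* (-1.49) and *Igll1* (-1.3), and *Il7r* (-0.29), and *Ptprc* was higher (0.53). Of all genes tested, 13.7% were lower and 16.0% higher. When counts were scaled by library size alone, 6 of the 10 markers were lower. Markers of T and NK cells summed to between 62 and 83 counts per library and 4 of 10 were at 0 throughout, and *Lyz2*, *Csf1r* and *Mpo*, which define myeloid cells, did not exceed 3 counts. Single markers of other lists rose: *Ly6g*, a neutrophil antigen, from 1 and 0 to 71 and 58 counts, and *Pecam1*, an adhesion molecule of endothelium and leukocytes, from 941 and 765 to 4974 and 4506, while *Cdh5*, *Kdr* and *Tek* had at most 3 counts. Fewer cells of a type and less RNA per cell cannot be told apart in bulk RNA.

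IRF4 is a transcription factor of the interferon regulatory factor family that B-lineage cells need to pass from the dividing pre-B cell stage to light chain recombination. It binds DNA weakly alone, and binds with ETS partners such as PU.1 at composite elements, with BATF and JUN at AP-1 composites, or at interferon response elements where its level is high. It activates some genes and represses others. The 10 genes are not a pathway. They code for an ion channel subunit and a tubulin, for enzymes, for cell surface and guidance proteins, for a cytokine, and for an adhesion receptor, and several are better known from neurons, stroma or innate lymphoid cells than from B cells.

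Promoter windows from RefSeq (GRCm38.p6, 250 bases before to 50 bases after an annotated start) were found for 8 of the 10 genes, in 11 windows, not for *Car2* and *Cd248*. The windows below are of the first 2 genes by loading, which contrast in CpG content, and of the 2 genes in which an IRF-partner motif was found. They read 5′ to 3′ on the strand of the gene. Capitals mark the letters of a motif, the ETS-IRF composite element (GGAA, any 2 bases, GAAA) in *Clec2i*, read on the opposite strand, and TGANTCA (AP-1) in *Adgrg1*. The windows lie at chr12:17176839-17177138 (minus strand), chr8:123411303-123411602 (plus), chr6:128887337-128887636 (plus) and chr8:94984149-94984448 (plus).
Kcnf1: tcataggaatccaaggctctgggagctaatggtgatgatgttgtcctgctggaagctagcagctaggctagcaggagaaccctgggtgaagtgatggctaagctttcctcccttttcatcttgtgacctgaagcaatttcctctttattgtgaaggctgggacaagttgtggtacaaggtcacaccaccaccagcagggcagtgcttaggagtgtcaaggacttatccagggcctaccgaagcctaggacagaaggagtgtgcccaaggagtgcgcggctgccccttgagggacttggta
Tubb3: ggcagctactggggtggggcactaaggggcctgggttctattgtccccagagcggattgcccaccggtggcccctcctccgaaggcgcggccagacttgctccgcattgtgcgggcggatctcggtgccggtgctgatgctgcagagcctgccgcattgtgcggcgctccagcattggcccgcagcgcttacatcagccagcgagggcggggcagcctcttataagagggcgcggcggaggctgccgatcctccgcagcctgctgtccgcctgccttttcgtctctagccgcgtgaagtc
Clec2i: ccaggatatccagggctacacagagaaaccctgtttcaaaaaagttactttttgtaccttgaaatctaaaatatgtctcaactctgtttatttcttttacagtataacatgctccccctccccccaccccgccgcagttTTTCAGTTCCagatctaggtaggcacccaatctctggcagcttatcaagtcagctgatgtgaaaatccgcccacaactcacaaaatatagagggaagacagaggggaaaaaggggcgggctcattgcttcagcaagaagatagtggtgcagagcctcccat
Adgrg1: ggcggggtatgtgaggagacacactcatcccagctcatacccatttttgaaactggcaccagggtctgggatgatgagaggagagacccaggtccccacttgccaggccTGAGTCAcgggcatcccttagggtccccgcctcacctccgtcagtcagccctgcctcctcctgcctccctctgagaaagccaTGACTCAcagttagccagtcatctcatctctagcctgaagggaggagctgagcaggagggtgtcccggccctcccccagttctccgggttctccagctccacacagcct

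The composite letters in *Clec2i* began at position -111 from the start site, and were in both of its windows, which overlap. Both strands of all windows were searched, and 2.72% of 32851 RefSeq windows of this length hold these letters. The AP-1 letters of *Adgrg1* began at -141 and -59 in its second window only, against 7.81% of all windows. The interferon response letters (GAAA, any 2 bases, GAAA) were in 0 of the 11 windows and in 3.44% of all windows, and TATAAA was in the *Lta* window only, at -167, against 13.6%. The E-box letters CANNTG, the same on both strands, were in 7 of the 11 windows and in 72.3% of all. None of these matches overlapped a match of another motif in the windows of the 10 genes. *Kcnf1* had 3 CG dinucleotides in its window and *Tubb3* 26, against a median of 7 over all windows, and *Sema5b* had 27 and *Radil* 29 and 3 in its 2 windows. A match is a description of these letters, and the missing ones say nothing of sites elsewhere.

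All 10 genes passed the filter on low counts, and the lowest count of any of them in any library was 54. Since they were chosen on the contrast of IRF4-RV with EV-RV, their values in it are given as a description without a test. In each of the 10, both IRF4-RV libraries lay below both EV-RV libraries, as the choice requires. Over the 14637 genes tested with edgeR at an FDR of 0.1, 29.7% were called, 13.7% lower and 16.0% higher. When counts were scaled by library size alone the balance turned, and 2867 of 4610 called genes were lower. The median log2 fold change of the 10 genes was -2.03, against 0.00726 for all genes tested. With IRF4-RV they kept between 10.1% and 32.7% of the EV-RV level.

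**Figure D1:**
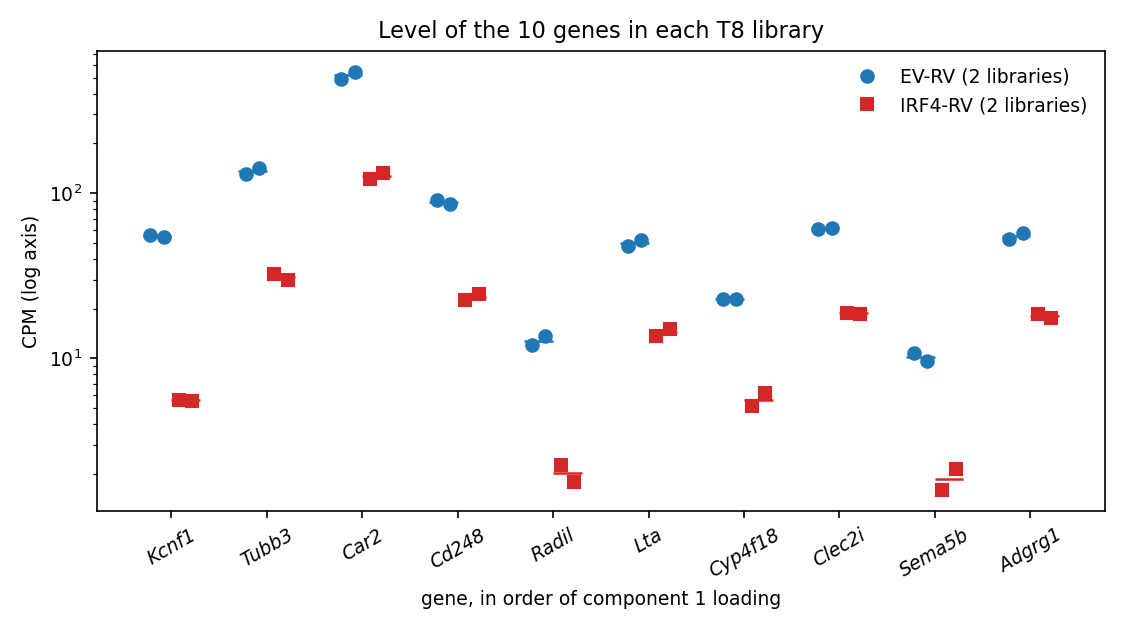
Level of each of the 10 genes in CPM (log axis) in the 2 EV-RV libraries (circles) and the 2 IRF4-RV libraries (squares), with lines at the group means. *Kcnf1* shows the widest distance between groups, from 55.1 to 5.58 CPM, and *Adgrg1* the narrowest, from 55.1 to 18 CPM.

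Component 1 took 92.02% of the variance of the 500 most variable genes and gave scores of -17 and -16.2 to the EV-RV duplicates, against 16.4 and 16.7 for IRF4-RV. Of these 500 genes, 104 had negative and 396 positive loadings. The 10 genes held ranks 1 to 8, 10 and 11 among the negative loadings, from -0.0811 for *Kcnf1* to -0.044 for *Sema5b* and -0.0432 for *Adgrg1*. Rank 9 was *Vpreb1*, a surrogate light chain component that is not one of the 10, with 20408 and 22657 counts under EV-RV, against 7803 and 8865 under IRF4-RV. Just outside were *Gm12896* and *Gm12895* (both -0.043), *Kynu* and *Gprin1* (both -0.0424) and *Gm20186* (-0.0421). *Gm12896* and *Gm12895* had nearly the same counts as each other, 2391 and 2385 in the first EV-RV library, and may share reads. They and *Gprin1* were uneven between duplicates, with *Gprin1* at 703 and 295 counts under EV-RV, against 69 and 194 under IRF4-RV, which none of the 10 genes was: the highest ratio between duplicates among the 10 was 1.34.

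A loading weighs the fold and the abundance of a gene together, and by the fold alone the 10 genes were not the most reduced in the table. Their log2 fold changes ranked from 15 (*Kcnf1*) to 124 (*Adgrg1*) of 14637 genes, and 114 other genes had a lower value than *Adgrg1*. Among the 11765 genes with a mean of at least 50 counts they ranked from 2 to 44. The choice also depended on the transformation. On log2 CPM in place of variance-stabilized counts, 1 of the 10 most negative loadings was one of these genes, and without the second EV-RV library 4 were.

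**Figure D2:**
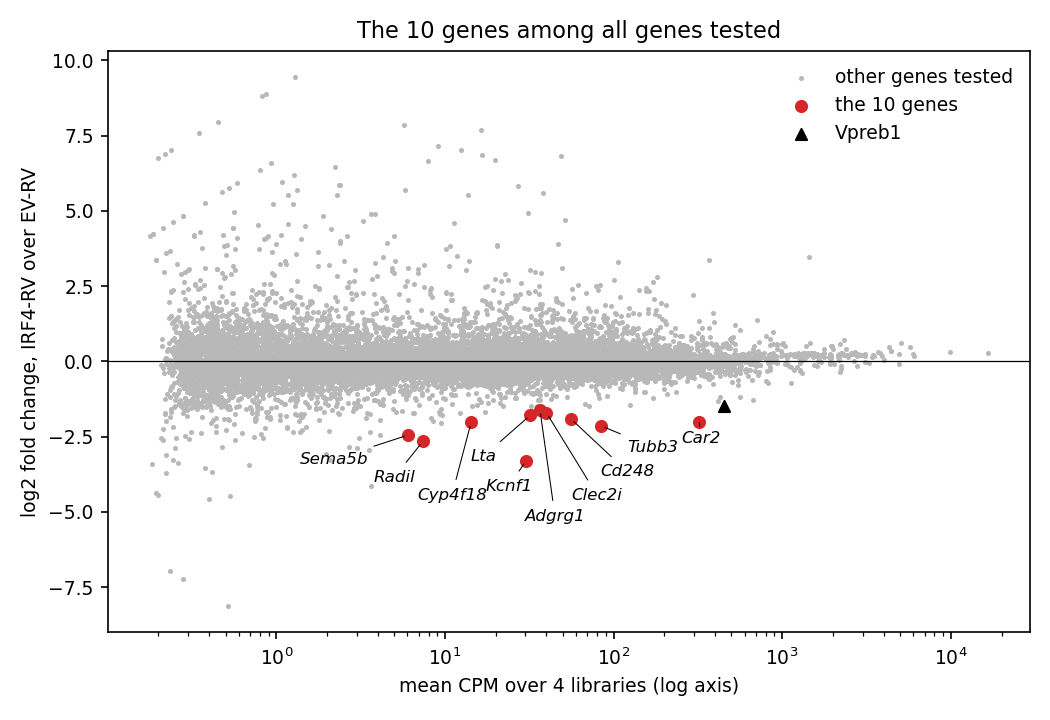
Log2 fold change of IRF4-RV over EV-RV against mean CPM over the 4 libraries (log axis) for the 14637 genes tested, with the 10 genes in red and *Vpreb1* as a triangle. The 10 genes lie between -3.3 and -1.61, below most genes of their abundance. Points of genes at 0 in a group depend on the fit's prior count.

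*Kcnf1* (ENSMUSG00000051726) was the most reduced of the 10. It codes for a voltage-gated potassium channel alpha subunit that forms no channel alone and modifies channels formed by other subunits. It is a gene of 1 exon at 17172100 to 17176888 on the minus strand of chromosome 12. It was counted 1865 and 1710 times under EV-RV, against 190 and 202 times under IRF4-RV. Its level went from 55.1 ± 1.18 to 5.58 ± 0.0436 CPM (SD, n = 2), 9.87-fold lower, at a log2 fold change of -3.3 (SE 0.099). The CPM of duplicates lay close together and the groups were far apart. Of 39 other voltage-gated potassium channel subunits, 7 were tested, of which 2 fell and 1 rose by edgeR, and 0 were called by DESeq2. *Kcna3*, the main such channel of lymphocytes, rose from 503 and 455 to 716 and 610 counts (log2 fold change 0.36, adjusted p = 0.0908).

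*Tubb3* (ENSMUSG00000062380) codes for class III beta-tubulin, a subunit of microtubules used as a marker of neurons. It lies at 123411424 to 123422015 on the plus strand of chromosome 8 and has 4 exons. It had 4364 and 4505 counts under EV-RV, against 1099 and 1084 under IRF4-RV, or 137 ± 8.55 and 31.1 ± 1.89 CPM (SD, n = 2). The log2 fold change was -2.14 (SE 0.0904). The 8 neuronal markers in the list summed to 57 and 38 counts under EV-RV, against 38 and 74 under IRF4-RV, and of the 2 tested 0 were called by edgeR (0 at an unadjusted p under 0.05) or by DESeq2. The other 6 had too few counts to test. The abundant beta-tubulin *Tubb5* had 85132 and 86348 counts under EV-RV, against 87235 and 99346 under IRF4-RV (log2 fold change 0, adjusted p = 0.977). Of 18 other tubulins, 13 were tested, 3 rose and 0 were called lower (1 at an unadjusted p under 0.05). The 1 was *Tuba4a* at -0.24 (adjusted p = 0.102), which DESeq2 called (adjusted p = 0.0618). The rises were led by the beta-tubulins *Tubb2b* with 1158 and 1015 against 2235 and 2387 counts (log2 fold change 0.98, adjusted p = 0.000203) and *Tubb2a* (0.58, adjusted p = 0.00774), followed by the gamma-tubulin *Tubg2* (0.47, adjusted p = 0.0773).

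*Car2* (ENSMUSG00000027562) codes for a cytosolic carbonic anhydrase, an enzyme that interconverts CO2 and bicarbonate and is abundant in red cells and osteoclasts. It lies at 14886273 to 14900770 on the plus strand of chromosome 3, with 7 exons. It was the most abundant of the 10, with 16439 and 17154 counts under EV-RV, against 4116 and 4819 under IRF4-RV. Its level went from 518 ± 36.3 to 127 ± 7.66 CPM (SD, n = 2), a log2 fold change of -2.03 (SE 0.0866). Erythroid markers summed to 409 and 420 counts under EV-RV, against 474 and 582 under IRF4-RV, and 0 of the 3 tested were called by edgeR (0 at an unadjusted p under 0.05) or by DESeq2. Of 15 other carbonic anhydrases, 5 were tested. *Car3*, another cytosolic enzyme, fell from 375 and 355 to 161 and 179 counts (log2 fold change -1.22, adjusted p = 0.000456), and the membrane enzyme *Car12* fell from 623 and 524 to 383 and 305 (-0.84, adjusted p = 0.00692). *Car13* moved the other way, from 111 and 126 to 195 and 248 counts (0.78, adjusted p = 0.0175).

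*Cyp4f18* (ENSMUSG00000003484) codes for a cytochrome P450 that hydroxylates leukotriene B4, a neutrophil attractant. It lies at 71988482 to 72009626 on the minus strand of chromosome 8. It had 767 and 726 counts under EV-RV, against 173 and 224 under IRF4-RV, or 23 ± 0.0268 and 5.63 ± 0.739 CPM (SD, n = 2), a log2 fold change of -2.03 (SE 0.125). The IRF4-RV libraries differed more from each other than the EV-RV libraries did. *Zfp961* overlaps it on the opposite strand over 181 exonic bases, 9.76% of its exons, and without a stated strand setting reads there cannot be told apart. *Zfp961* itself had between 338 and 397 counts in every library. Of 18 genes of the CYP4F enzymes and leukotriene metabolism, 7 were tested, 4 rose and 0 fell (0 lower also at an unadjusted p under 0.05 and by DESeq2). Those that rose included *Ptgr1*, which inactivates leukotriene B4 and prostaglandins (log2 fold change 0.82, adjusted p = 0.000482), *Cyp4f16* (0.54, adjusted p = 0.00416) and *Lta4h*, which makes leukotriene B4 (0.42, adjusted p = 0.00734). The receptor gene *Ltb4r1* had 0 counts in all libraries.

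*Cd248* (ENSMUSG00000056481) codes for endosialin, a membrane glycoprotein of the group XIV C-type lectins known from pericytes and fibroblasts. It is a gene of 1 exon at 5068078 to 5070682 on the plus strand of chromosome 19. It had 3013 and 2713 counts under EV-RV, against 757 and 897 under IRF4-RV, or 88.2 ± 3.01 and 23.5 ± 1.62 CPM (SD, n = 2), a log2 fold change of -1.91 (SE 0.0908). Stromal markers were uneven between duplicates. The 9 markers summed to 1589 and 2824 counts under EV-RV, against 1603 and 8084 under IRF4-RV, *Col1a1* alone going from 528 to 2265 between the IRF4-RV duplicates, while *Dcn* and *Lum* stayed at 2 counts or fewer. Of the 6 tested, 0 were called by edgeR (0 at an unadjusted p under 0.05) or by DESeq2. Between the EV-RV duplicates *Cd248* was at 90.3 and 86 CPM, the lower value in the library with the higher stromal sum. Between the IRF4-RV duplicates *Cd248* was at 22.4 and 24.6 CPM, the higher value in the library with the higher stromal sum. Without that library its log2 fold change was -1.98, and the part of stromal cells in its level was not tested. The other tested lectins of its group both rose, *Thbd*, thrombomodulin, from 525 and 544 to 1200 and 1144 counts (log2 fold change 1.02, adjusted p = 0.000474), and *Cd93*, a marker of early B cells, from 8822 and 7257 to 13625 and 12956 (0.62, adjusted p = 0.00339).

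*Clec2i* (ENSMUSG00000030365) codes for a CLEC2 lectin that is a ligand of NKR-P1 receptors of NK cells, among them the product of *Klrb1f*. It lies at 128887588 to 128898167 on the plus strand of chromosome 6. It had 2038 and 1937 counts under EV-RV, against 636 and 675 under IRF4-RV, or 61.3 ± 0.249 and 18.7 ± 0.169 CPM (SD, n = 2), a log2 fold change of -1.71 (SE 0.086). Of 13 other CLEC2 lectins and NKR-P1 receptors, 6 were tested, 5 rose and 0 fell (0 lower also at an unadjusted p under 0.05 and by DESeq2). *Clec2d* rose from 146 and 92 to 334 and 299 counts (log2 fold change 1.30, adjusted p = 0.00385) and *Cd69*, an activation marker, from 667 and 619 to 1293 and 1687 (1.09, adjusted p = 0.000474). The receptor gene *Klrb1f* rose from 11 in each EV-RV library to 59 and 56 counts (2.26, adjusted p = 0.00408). T and NK cell markers stayed at the low sums given above. Of the 50-base words of the *Clec2i* transcript, 95.1% are not found in transcripts of other genes, and the shared ones are mostly with *Clec2g* and *Clec2h*, which had at most 1 count in any library.

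*Lta* (ENSMUSG00000024402) codes for lymphotoxin alpha, a cytokine of lymphocytes that signals through the TNF receptors as a homotrimer and through the lymphotoxin beta receptor when joined with the product of *Ltb*. It lies at 35203165 to 35205351 on the minus strand of chromosome 17, with 4 exons. It had 1587 and 1645 counts under EV-RV, against 464 and 547 under IRF4-RV, or 49.9 ± 3.26 and 14.4 ± 0.936 CPM (SD, n = 2), a log2 fold change of -1.79 (SE 0.102). Its partner *Ltb* also fell, from 303 and 292 to 225 and 218 counts (-0.54, adjusted p = 0.0222), and *Tnf*, with 4 to 10 counts, was too low to test. Of 27 other genes of the lymphotoxin and TNF axis, 24 were tested, 13 rose and 2 fell, *Ltb* and the inhibitory receptor *Btla* (-0.56, adjusted p = 0.00499). *Traf5* rose by 1.33, *Map3k14*, the kinase of the alternative NF-kB pathway, by 1.16 and *Tnfaip3*, an inhibitor of NF-kB, by 1.14 on the log2 scale (adjusted p = 0.000142, 0.0628 and 0.00528). The receptors *Tnfrsf14* (1, adjusted p = 0.00321) and *Tnfrsf1b* (0.78, adjusted p = 0.000491) rose, *Tnfrsf1a* had 13, 44, 18 and 90 counts (0.76, adjusted p = 0.525), and *Ltbr* had at most 33 counts. The higher count of *Tnfrsf1a* and *Ltbr* was in the second library of each group, as with the stromal markers, and the part of those cells in it was not tested.

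*Sema5b* (ENSMUSG00000052133) codes for a transmembrane semaphorin of axon guidance, with plexins of the A class as receptors. It lies at 35541145 to 35664732 on the plus strand of chromosome 16, with 21 exons in its longest transcript. It was the scarcest of the 10, with 361 and 305 counts under EV-RV, against 54 and 78 under IRF4-RV, or 10.2 ± 0.811 and 1.87 ± 0.387 CPM (SD, n = 2), a log2 fold change of -2.45 (SE 0.187). The IRF4-RV duplicates differed by the highest ratio found among the 10 genes. Of 30 other semaphorins, plexins and neuropilins, 18 were tested, 8 fell and 2 rose. The plexin *Plxnc1* fell from 157 and 125 to 65 and 35 counts (-1.59, adjusted p = 0.0102) and *Sema6b* from 90 and 55 to 39 and 35 (-1.07, adjusted p = 0.0495). The class A plexins *Plxna2* (-0.76, adjusted p = 0.0383), *Plxna1* (-0.43, adjusted p = 0.0251) and *Plxna3* (-0.36, adjusted p = 0.0598) fell as well, as did *Plxnd1* (-0.78, adjusted p = 0.00433). *Sema5a*, the closest relative of *Sema5b*, rose from 1204 and 1070 to 2474 and 2264 counts (0.95, adjusted p = 0.000576).

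*Radil* (ENSMUSG00000029576) codes for an effector of the small GTPase Rap1 that acts in integrin activation and cell adhesion. It lies at 142484839 to 142551098 on the minus strand of chromosome 5. It had 399 and 429 counts under EV-RV, against 77 and 65 under IRF4-RV, or 12.8 ± 1.17 and 2.03 ± 0.345 CPM (SD, n = 2), 6.3-fold lower at a log2 fold change of -2.66 (SE 0.17). Of 34 other genes of Rap1 and integrin activation, 30 were tested, 8 rose and 4 fell, a balance that turned to 5 and 6 when counts were scaled by library size only. *Rap1a*, a Rap1 GTPase gene, rose from 4550 and 4904 to 10782 and 11568 counts (1.12, adjusted p = 8.67e-05), while *Rap1b* had 7079 and 7110 against 7046 and 7863 (-0.05, adjusted p = 0.712). *Rap1gap*, which turns Rap1 off, rose from 16 and 27 to 94 and 80 counts (1.89, adjusted p = 0.00761), and the integrin *Itgal* from 114 and 93 to 273 and 261 (1.26, adjusted p = 0.00148). Among the 4 that fell was *Tln2*, a talin, which links integrins to actin, from 82 and 72 to 12 and 22 counts (-2.29, adjusted p = 0.00316).

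*Adgrg1* (ENSMUSG00000031785), also called GPR56, codes for an adhesion G protein-coupled receptor known from neural precursors, hematopoietic stem cells and cytotoxic lymphocytes, with collagen III and transglutaminase 2 as ligands. It lies at 94974751 to 95014217 on the plus strand of chromosome 8. It had 1763 and 1809 counts under EV-RV, against 628 and 638 under IRF4-RV, or 55.1 ± 3.21 and 18 ± 0.72 CPM (SD, n = 2), a log2 fold change of -1.61 (SE 0.0945). Of 29 other adhesion receptors, 7 were tested, 3 fell and 1 rose. *Adgrg3* fell from 853 and 843 to 282 and 297 counts (-1.67, adjusted p = 3.26e-05), and *Adgrl1* (-0.61, adjusted p = 0.00712) and *Celsr1* (-0.45, adjusted p = 0.0364) fell less. Of the partners and signaling genes of GPR56, 13 of 14 were tested, 1 fell and 3 rose. This is 30.8% called, against 29.7% of all genes. The gene that fell was *Tgm2*, the ligand transglutaminase 2, from 213 and 240 to 47 and 43 counts (-2.44, adjusted p = 0.000162). *Gna11* (0.95, adjusted p = 0.00131) and *Arhgef12* (0.70, adjusted p = 0.00682) rose, and the G protein gene *Gna13* by 0.21 (adjusted p = 0.0796). The ligand gene *Col3a1*, which is itself in the stromal marker list, had 181, 357, 233 and 1099 counts (1.15, adjusted p = 0.222).

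Over all 11 lists, 132 of 240 relatives and partners were tested, and 22 fell and 43 rose. This is 49.2% called, against 29.7% of all genes, with a median log2 fold change of 0.15. By list the share called was 23.1% for tubulins, 30.8% for GPR56 partners, 40% for Rap1 and 42.9% for potassium channel subunits. It was 55.6% for semaphorins, 57.1% for leukotriene genes and for adhesion receptors, and 60% for carbonic anhydrases. It was 62.5% for the lymphotoxin axis, 83.3% for the CLEC2 list and 100% for the 2 tested group XIV lectins. The lists were drawn up with the results for the 10 genes known, and no list as a whole was tested.

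**Figure D3:**
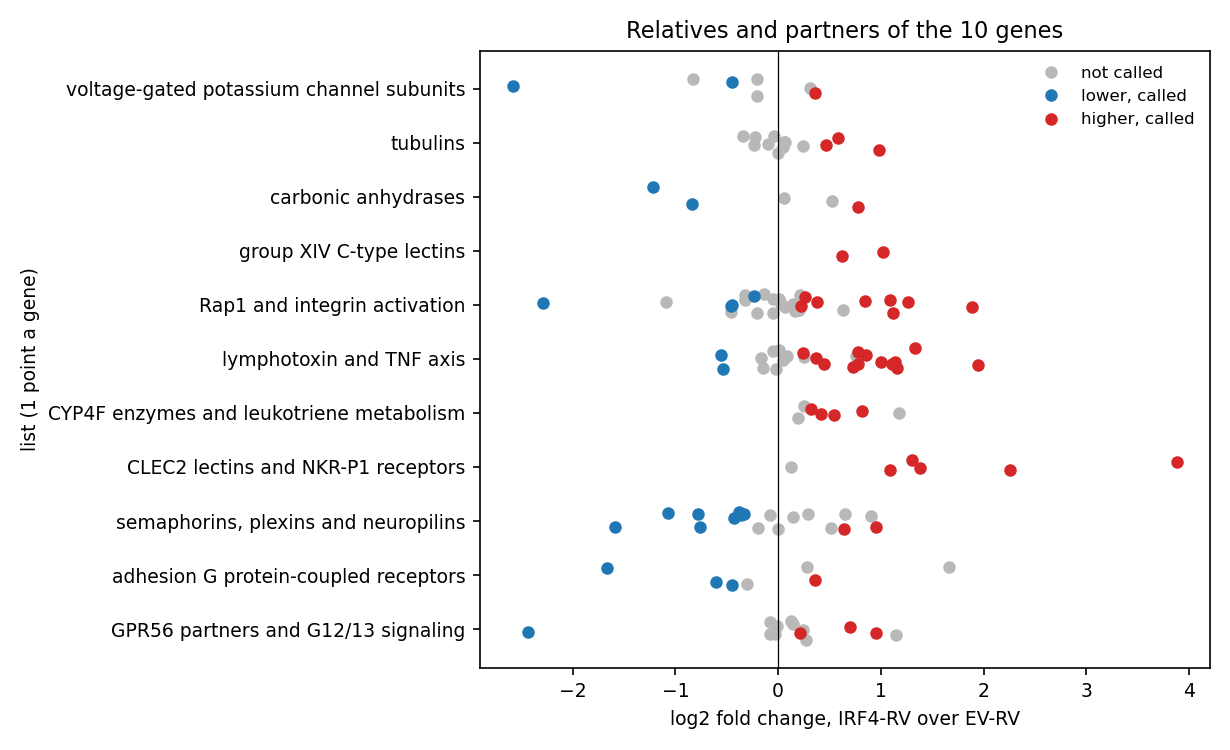
Log2 fold change of IRF4-RV over EV-RV (horizontal axis) for the 132 tested relatives and partners of the 10 genes, 1 point a gene, in 11 lists, with blue for genes called lower, red for higher and grey for not called. The CLEC2, leukotriene, tubulin and group XIV lectin lists hold no gene called lower, and the semaphorin list has 8 lower and 2 higher.

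Levels between genes were compared per kilobase of exons. With EV-RV the order ran from *Car2* (214 ± 15 CPM per kb, SD, n = 2) over *Tubb3* (73.3 ± 4.58), *Lta* (36.1 ± 2.36), *Cd248* (33.8 ± 1.16), *Clec2i* (19.7 ± 0.0801), *Cyp4f18* (12.4 ± 0.0144), *Kcnf1* (11.5 ± 0.245), *Adgrg1* (10.2 ± 0.592) and *Radil* (2.66 ± 0.243) to *Sema5b* (1.45 ± 0.114). The duplicates of *Lta* and *Cd248* overlapped, and the other 8 pairs of neighbours in the order did not. The median gene tested stood at 4.54 CPM per kb, so 8 of the 10 were above it. With IRF4-RV the range was from 52.4 ± 3.16 for *Car2* to 0.264 ± 0.0547 CPM per kb for *Sema5b*, and 5 of the 10 were above the median gene, at 4.64. The order changed among 3 genes. *Kcnf1* came last of them, at 1.17 ± 0.00911 CPM per kb, below *Adgrg1* (3.33 ± 0.133) and *Cyp4f18* (3.04 ± 0.398), whose duplicates overlapped. This change rested on the length used. Per kilobase of the longest transcript, *Adgrg1*, *Cyp4f18* and *Kcnf1* stood at 15.2, 13.5 and 11.5 CPM with EV-RV. With IRF4-RV they kept that order, at 4.99, 3.31 and 1.17. By percentile among all genes, *Kcnf1* went from 70 to 25.5 and *Car2* from 97.8 to 91.1.

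The 10 genes lie at 10 loci on 8 chromosomes, with *Tubb3*, *Cyp4f18* and *Adgrg1* far apart on chromosome 8. Of 434 genes that start within 500 kb of one of them, 213 were tested, and 28 fell and 34 rose, 29.1% against 29.7% of all genes tested. Close relatives next to a member differed in direction from locus to locus, and also within the *Car2* locus. There *Car13*, 245 kb upstream of *Car2* on the same strand, rose (0.78, adjusted p = 0.0175). *Adgrg3* starts 42.9 kb downstream of *Adgrg1* on the same strand, *Car3* 22.8 kb upstream of *Car2* and *Ltb* 10.9 kb from *Lta* on the opposite strand, and all of them fell as given above. At *Clec2i*, 10 of 21 tested neighbours rose, *Clec2d*, *Klrb1f* and *Cd69* among them, and 1 fell. This is 52.4% called, against 29.7% of all genes tested. DESeq2 called 7 higher and 1 lower. *BC035044* starts 3.54 kb from *Clec2i* on the opposite strand and runs across its 5′ part without sharing exonic bases, and rose from 560 and 621 to 3513 and 3841 counts (2.52, adjusted p = 4.4e-06). Intronic reads of this pair cannot be assigned without the strand.

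*Mc1r*, the melanocortin receptor gene, starts 4.32 kb upstream of *Tubb3* on the same strand and fell from 89 and 96 to 18 and 34 counts (-1.95, adjusted p = 0.00506). The other 26 tested neighbours of *Tubb3* included 1 called lower and 1 higher. Among neighbours with at least 50 counts, the largest rises after *BC035044* were of *Klf2*, a factor of lymphocyte quiescence and homing, 309 kb from *Cyp4f18* (370 and 291 to 1471 and 1506 counts; 2.06, adjusted p = 2.45e-05), *Parp14*, an interferon-induced ADP-ribosyltransferase, 330 kb from *Sema5b* (1597 and 1161 to 5470 and 5066; 1.83, adjusted p = 7.97e-05) and *Fam129c*, 412 kb from *Cyp4f18* (468 and 457 to 1581 and 1768; 1.74, adjusted p = 1.83e-05). Of the 9 tested neighbours of *Kcnf1*, 4 fell and 0 rose (0 higher also at an unadjusted p under 0.05 and by DESeq2), and of the 10 of *Sema5b*, 3 rose and 0 fell (0 lower also at an unadjusted p under 0.05 and by DESeq2, and 1 lower with library size only). At *Lta* 10 of 48 rose and 7 fell, which turned to 5 and 11 with library size only and to 6 and 7 by DESeq2. The share of neighbours called by edgeR was 11.1% at *Tubb3*, 44.4% at *Kcnf1*, 30% at *Sema5b* and 35.4% at *Lta*. Of all genes tested it was 29.7%.

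**Figure D4:**
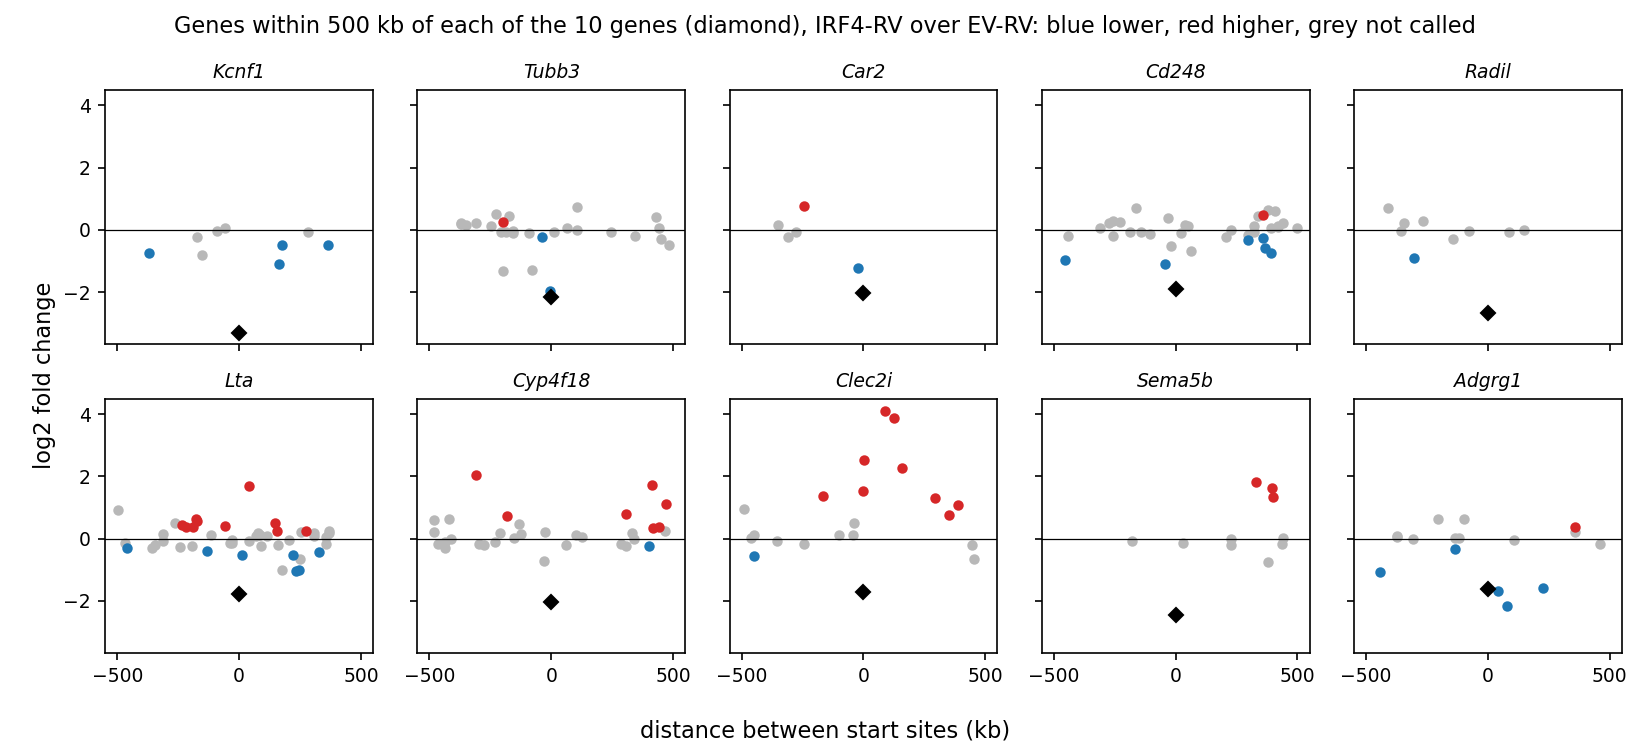
Log2 fold change of IRF4-RV over EV-RV for tested genes starting within 500 kb of each of the 10 genes (black diamond), against the distance between start sites in kb, with blue for called lower, red for called higher and grey for not called. Red points crowd around *Clec2i*. Close to *Tubb3*, *Car2* and *Adgrg1* lie the blue points of *Mc1r*, *Car3* and *Adgrg3*. By share of tested neighbours, genes called lower were most frequent at *Kcnf1* (4 of 9, 44.4%) and *Adgrg1* (5 of 16, 31.2%). The share was 20% at *Car2* (1 of 5), 16.7% at *Cd248* (6 of 36), 14.6% at *Lta* (7 of 48) and 7.41% at *Tubb3* (2 of 27). Of all genes tested, 13.7% were called lower. Genes called higher numbered 10 at *Lta*, 1 each at *Tubb3*, *Car2*, *Cd248* and *Adgrg1*, and 0 at *Kcnf1*. *BC064078* near *Clec2i*, at 0 counts under EV-RV, against 24 and 25 under IRF4-RV, is not drawn.

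The genes with a pattern most like the mean of the 10 over the 4 libraries, by distance between centred log2 CPM, were *Tgm2* (0.338), *Angptl2* (0.339), *Vipr1* (0.387), *Gng4* (0.438) and *Krt17* (0.478). The 10 genes themselves lay between 0.138 (*Tubb3*) and 1.14 (*Kcnf1*) from their own mean. *Angptl2* had 428, 452, 96 and 143 counts and *Vipr1* 96, 124, 26 and 22, in the order EV-RV 1 and 2, IRF4-RV 1 and 2. *Gng4* had 194, 197, 31 and 52 counts and *Krt17* 502, 432, 124 and 175. With 4 libraries in 2 groups, a likeness of this kind rests mostly on the size of the group difference.

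The difference between replicate numbers was not used in the choice of the 10 genes and was tested. With the group in the model, replicate 2 minus replicate 1 was between -0.03 and 0.13 on the log2 scale for the 10 genes. This value combines both groups, so opposite differences cancel. *Sema5b* went from 10.8 to 9.67 CPM in EV-RV and from 1.59 to 2.14 CPM in IRF4-RV, and its value was 0.04. *Radil* went from 12 to 13.6 and from 2.27 to 1.79 CPM, and its value was 0.01. Small values therefore do not measure the agreement of duplicates. By edgeR 0 of the 10 were called at an FDR of 0.1, against 9.91% of all genes, and by DESeq2 also 0. At an unadjusted p under 0.05 there was 1, *Car2*, whose difference of 0.13 (SE 0.0571) had an edgeR adjusted p = 0.155. *Lta* had the same size, 0.13 (SE 0.0921, adjusted p = 0.495), and *Cyp4f18* 0.11 (SE 0.119, adjusted p = 0.735). A p above the threshold does not show that the duplicates were equal.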

How the data were processed

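Bulk RNA of T8 cells that had received EV-RV or IRF4-RV was sequenced in duplicate. The authors aligned reads to GRCm38 with STAR (2.4.0j) and counted them per gene with featureCounts, per the labels and the methods, and deposited raw counts per gene without normalization. Whether strand was used, and how multi-mapped reads were treated, is not given in the sources used here. Of 55359 Ensembl identifiers, 52083 matched GENCODE M21 (GRCm38), which gave symbols, exons and coordinates. The annotation used for counting may be newer than M21, since the other identifiers are not in it, and levels per kilobase, overlaps and distances rest on M21 gene models.

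Genes passing filterByExpr were tested in R 4.3.3 with edgeR 4.0.16 (TMM factors, quasi-likelihood F test, Benjamini-Hochberg adjustment over all genes tested, FDR 0.1, no block). Every adjusted p is from edgeR unless DESeq2 is named. A second edgeR fit tested the replicate number with the group as covariate. Log2 fold changes come from the fit, their SE from its F statistic, CPM from TMM-scaled library sizes. Component 1 was computed on the 500 most variable genes after DESeq2 (1.42.0) variance stabilization. The procedure was tested on simulated data, drawn as independent counts from the model that edgeR fits. Such data cannot show how far that model holds for these libraries.

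The 10 genes and all lists were chosen with earlier results of these data known. Named genes are the 10, *Irf4*, per list the 3 called genes with the largest absolute change among those with a mean of at least 50 counts plus direct partners, the 5 such neighbours with the largest change plus paralogs, the next 5 genes on component 1, the 5 most similar genes, and markers with over 50 counts. *Rap1b*, *Tubb5*, *Tuba4a*, *Clec2g*, *Clec2h*, *Zfp961*, *Tln2*, *Btla*, *Plxnd1* and *BC064078* were named after their values were seen. Alternatives were other scaling, filters, DESeq2, a replicate block, an FDR of 0.05, other component settings, and leaving out each library. T11 libraries were not analysed here. Some results are not reported here.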

Additional observations from a re-analysis of the deposited data

How the results depend on the processing

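The log2 fold change of each of the 10 genes was recomputed under 10 alternatives. Of the 100 values, 96 moved by less than the spread between duplicates, 4 moved by more (1 for *Kcnf1*, 3 for *Clec2i*) and 0 changed direction. The widest range was that of *Sema5b*, from -2.68 to -2.28, and the median of the 10 lay between -2.12 and -1.96, in leave-one-out fits between -2.08 and -1.96. The number of the 10 genes among the 10 most negative loadings, 9 as reported, was 1 on log2 CPM and between 4 and 8 with a library left out, 4 without the second EV-RV library. The genes called over the whole table, 4349, were between 3573 and 3646 with a library left out and 3661 by DESeq2. Relatives called, 65, were between 49 and 65 with a library left out, and neighbours called, 62, between 53 and 55. Same-numbered duplicates deviated together with r = 0.26 over genes, with 2 pairs only, which does not establish a pairing. With the replicate block 6394 genes, 83 relatives and 94 neighbours were called. Genes differing between replicate numbers, 1450, were 202 by DESeq2. The cause of these changes was not tested. Leaving out a library in that test was not run, since no residual degrees of freedom would be left. The spread of each group rests on 2 libraries.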
